A study of Mus musculus with 120 samples.

Results

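The cells compared here are mouse group 2 innate lymphoid cells (ILC2) recovered 30 min after a cell began to secrete interleukin (IL)-13 and ILC2 recovered in the activated state. They were the 22 libraries labelled with the index IL13 and with the source Transition state (30min), 11 cells, or Activated, 11 cells, out of 120 single-cell libraries in the series. All 22 held more than 10000 gene reads, so no cell was dropped. The ILC2 came from the pooled mesentery of 20 wildtype C57BL/6 mice and were sorted as lineage-negative c-Kit+Sca-1+ cells, and both groups were incubated with IL-2/IL-33. Per the study's methods the sorted cells had been cultured for several months in IL-2, secretion was followed by live imaging, and activated cells were secreting cells taken at a fixed time of stimulation. The labels give no time since the stimulus for the onset cells, so that time and state cannot be told apart. Which animal or culture a cell came from is not in the labels, so each group was taken as 1 sample of 11 cells, and no test over cells was made.

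ILC2 are tissue-resident lymphocytes without rearranged antigen receptors that answer epithelial alarmins such as IL-33 with type 2 cytokines. The IL-33 receptor signals through MyD88 to NF-kB and to mitogen-activated kinases that feed AP-1, while IL-2 signals through STAT5. NF-kB induces its own inhibitors, among them IkB proteins and A20, which close the first phase of the response. Cells that secrete at a high rate come to rely on the translocation and folding machinery of the endoplasmic reticulum, on protein synthesis and on mitochondrial energy supply.

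Each library is a 3' RNA library of 1 cell. The onset cells held 2676904 gene reads in all, 166650 to 361239 per cell (median 219186), and the activated cells held 3193331, 207246 to 464285 per cell (median 266402). Reads of a gene were summed over the cells of a state and scaled to counts per 1000000 gene reads (CPM), and differences are given as log2 ratios of CPM, onset over activated, with 95% intervals of the split of reads. Where leaving out 1 cell moved the ratio of a called gene by over 1.5-fold, the lowest or highest value so reached is given with the cell left out. The intervals cover the counting error of reads only. The reads carry no molecular identifiers, so copies of 1 molecule count as separate reads, and the counting error of molecules is not covered. A state below 3 reads was set at that floor. A fold given as at least some value is the fold at this floor, a limit for reads and not for molecules. Titles hold 2 dates, the first with 5 and the second with 6 cells of each state, and a gene was called higher in a state when its summed CPM was at least 2-fold higher within each date. The labels do not say what the dates are. They say that sets of 5 or 6 libraries were pooled, which is the number of cells of a state on a date, so pool and state cannot be told apart within a date. Of all reads, 59.4% at onset and 65.0% in activated cells fell in genes and 9.04% and 5.98% in no feature, and the part of these shares in the results was not tested.

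Of 2536 genes with a mean of at least 50 CPM over both states, 363 were called higher at onset (14.3%) and 338 higher in activated cells (13.3%). By the second rule of at least 4-fold in the CPM summed over both dates, 310 were higher at onset (12.2%) and 242 higher in activated cells (9.54%). The median log2 ratio of all genes considered was -0.13, so a ratio near that value is no difference from the bulk of the genes. The dates agreed only in part. Of the genes considered, 65.3% had a log2 ratio of the same sign in both dates. The correlation (r) between the dates across genes was 0.33. At equal depth, after each cell was thinned to 100000 gene reads, onset cells had 1903 to 2483 genes with a read (median 2231) and activated cells 1491 to 3244 (median 2925). With at least 5 reads asked of a gene, the medians were 1713 and 2096. Genes detected moved with state in this way beside every gene below that had no reads in 1 state, and its part in those results was not tested. Among the called genes, 28 of those higher in activated cells had fewer than 3 reads at onset, and 25 of those higher at onset had fewer than 3 reads in activated cells.

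**Figure D1:**
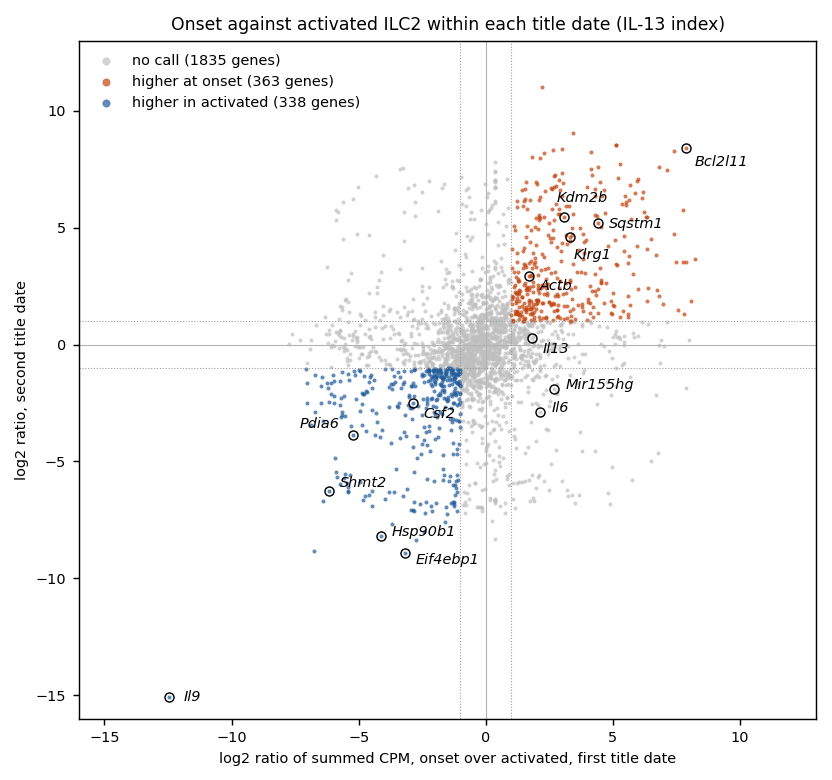
Each point is 1 of the 2536 genes, with the log2 ratio of summed CPM (onset over activated) on the first title date on the x axis and on the second date on the y axis. Dotted lines mark 2-fold, called genes are coloured, and Il13, Mir155hg and Il6 lie outside the coloured corners since their ratio on the second date was under 2-fold or of the other sign.

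Il13 (ENSMUSG00000020383, chromosome 11, 53631324 to 53634702, minus strand of GRCm38, the build of all positions given) encodes the cytokine whose secretion defined both states. Its mRNA was read in all 22 cells, at 150.4 to 5840.3 CPM (median 1364) in the onset cells and 33.4 to 4064 CPM (median 949.7) in the activated cells. The ranges overlapped almost fully. The log2 ratio of Il13 was 0.80 (0.74 to 0.86), from 2144 against 1231 CPM, but it was 1.80 on the first date and 0.27 on the second, so Il13 was not called. The SD between cells of log2(CPM + 1) was 1.52 at onset and 2.18 in activated cells, whereas the coefficient of variation of CPM was 0.81 and 0.91. Leaving out 1 cell moved the SD difference of 0.66 to between 0.21 and 1.04. Il5, the neighbouring type 2 cytokine gene, had a log2 ratio of 0.76 (0.69 to 0.84), or 0.32 without onset replicate 7, with 4.74 to 4156 CPM (median 949) in the onset cells and 4.88 to 2051 CPM (median 748) in the activated cells, and Il4 one of 0.79 (0.58 to 1.01), from 167 against 96.1 CPM (0.19 without onset replicate 9 and 1.41 without activated replicate 7). Neither was called.

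Il9 (ENSMUSG00000021538, chromosome 13, 56479277 to 56482246, minus strand), which encodes a growth and survival factor for ILC2 and mast cells, had the largest ratio of the named genes. The 11 onset cells held a single Il9 read, and the activated cells held 24.4 to 154582 CPM (median 196). No onset cell reached the lowest activated cell. The unfloored log2 ratio was -16.85, with a counting interval of -22.16 to -14.38. The activated cells were uneven: 4 cells held 1538 to 154582 CPM and 7 cells 24.4 to 275 CPM. High cells were present on both dates, with 1 on the first and 3 on the other. The labels do not say whether the low activated cells shared a library pool with the high ones, and the part of the pools in the low values was not tested. With onset set at the floor of 3 reads, Il9 had a ratio of -15.27 over all cells and -14.47 without activated replicate 11 on the log2 scale.

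Csf2 (ENSMUSG00000018916, chromosome 11, 54247271 to 54249667, minus strand) encodes the growth factor GM-CSF and ran at between 244 and 56670 CPM in the activated cells (median 4504), against 233 to 6457 CPM (median 1251) at onset. All 22 cells held reads and the ranges overlapped, with 5 activated cells above every onset cell. The log2 ratio of Csf2 was -2.68 (-2.72 to -2.64), with -2.87 and -2.52 within the dates. Ccl1, a chemokine gene, stood at 0 to 6557 CPM (median 50.2) in the onset cells and 147 to 34763 CPM (median 5346) in the activated cells. Its ratio was -2.90 (-2.96 to -2.85), and it was the 1 gene called of the 3 chemokine genes considered (against 13.3% of all genes), Cxcl1 and Cxcl2 having reads in at most 2 cells of a state. Ltb, which encodes lymphotoxin beta, went the other way, with 117 against 4.07 CPM and a log2 ratio of 4.85 (4.05 to 5.77). Ccl1 had a ratio of -3.93 without onset replicate 4 and -2.27 without activated replicate 2, and Ltb 3.99 without onset replicate 5 and 5.83 without activated replicate 4.

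The other cytokine genes gave no call. Il6 had reads in 9 cells of each state and a log2 ratio of -0.86 (-0.91 to -0.80), but 2.15 on the first date and -2.90 on the second. Activated replicate 6 held 68.9% of the activated Il6 reads, and without it the ratio was 0.69. Tnf likewise gave 1.64 and -2.03 within the dates, with reads in 5 onset cells and 3 activated cells, and its summed ratio of -0.45 became 0.43 without activated replicate 7. Tnfsf14 stood at 39.2 against 63.9 CPM, from 4 onset cells and 5 activated cells. The cytokine genes Areg, Lta, Lif, Osm, Csf1, Tgfb1, Tnfsf11 and Il2 lay under the mean of 50 CPM, and Il3, Il10 and Ifng had 0 reads in both states, which allows up to 1.12 CPM at onset and 0.939 CPM in activated cells. Of the 20 cytokine genes on the list, 9 were considered, 1 was called higher at onset and 2 higher in activated cells (11.1% and 22.2%, against 14.3% and 13.3% of all genes considered), with a median log2 ratio of -0.45 (1.30 on the first date and -2.03 on the second, and 0.65 without activated replicate 6).

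**Figure D2:**
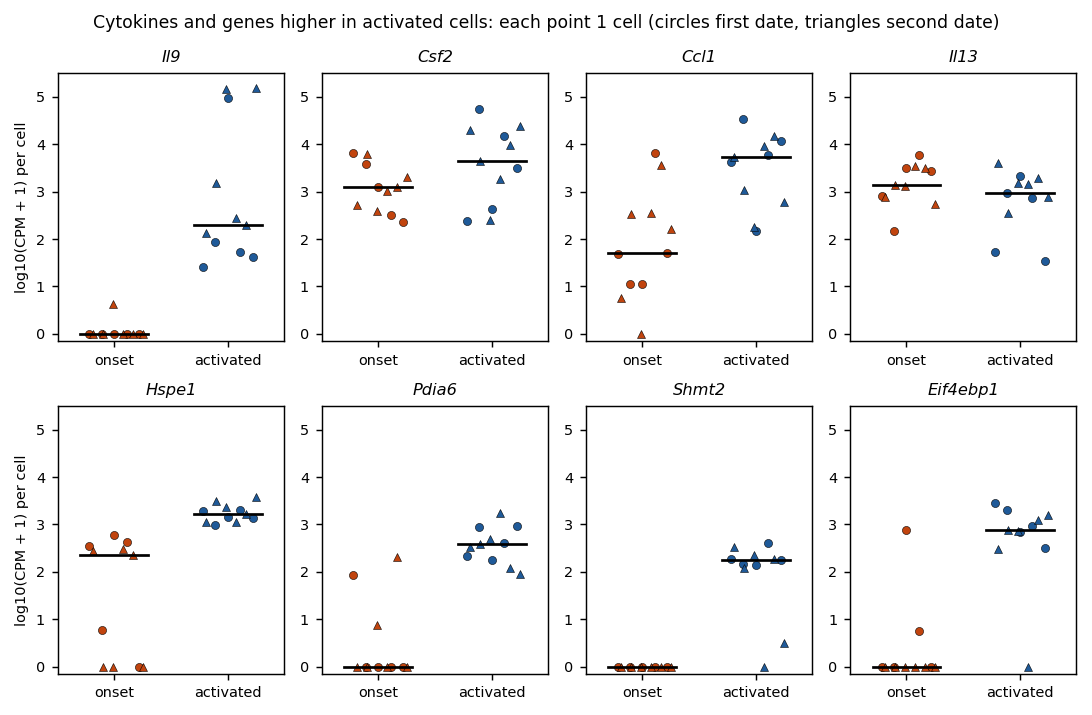
Each point is 1 cell, with log10(CPM + 1) on the y axis and its state on the x axis, circles for the first title date, triangles for the second and bars at the median. Il9 and Hspe1 do not overlap between the states, Il13 overlaps almost fully, and Pdia6, Shmt2 and Eif4ebp1 are at 0 in most onset cells.

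NF-kB target and feedback genes lay toward onset. Of the 15 target and feedback genes considered, 8 were called higher at onset and 1 higher in activated cells, against 14.3% and 13.3% of all genes considered, and their median log2 ratio was 1.56 (2.36 and 1.70 within the dates) against -0.13 over all. Their summed level ran from 7292 to 24654 CPM at onset (median 15280) and 900.3 to 8777 CPM in activated cells (median 2779), and 10 of 11 onset cells lay above every activated cell. Sqstm1 made up much of this sum. Without it the onset cells held 3657 to 10244 CPM (median 6474) and the activated cells 485 to 8125 (median 1703), and 2 onset cells lay above every activated cell.

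NF-kB acts through kappaB elements, which lie in the promoters of several of these genes. RefSeq promoter windows (GRCm38.p6, 250 bases before to 50 after a start site) were searched on both strands for the kappaB consensus of 10 letters. Of the 9 called genes of the list, 8 had a window and 6 held a match, namely Nfkbia, Tnfaip3, Sqstm1, Tnip1, Bcl2l1 and Bcl3, against 9.55% of all 27025 genes with a window. Over all called genes a match was held by 15.9% of those higher at onset and 8.59% of those higher in activated cells, against 11.3% of the genes considered that had a window. Of all 15 list members considered, 13 had a window and 7 held a match (53.8%), the uncalled Nfkbid among them. The list was drawn up from known NF-kB targets, so its share describes the list. The AP-1 motif TGANTCA, searched in the same way, was held by 4.71% of genes higher at onset, 4.12% of those higher in activated cells, 5.98% of genes considered and 8.97% of all, and by 1 of 8 called immediate early genes. A match is a run of letters and not a site shown to be bound. The upstream stretches of 4 of the 6 called genes with a kappaB match follow, 5' to 3' on the gene's strand, with the matches in capitals. Each holds up to 30 bases on each side of the matches and stops at the start site where that comes first.
Nfkbia (chr12:55492648-55492706, minus strand): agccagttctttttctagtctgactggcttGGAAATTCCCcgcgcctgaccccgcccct
Tnfaip3 (chr10:19015411-19015565, minus strand): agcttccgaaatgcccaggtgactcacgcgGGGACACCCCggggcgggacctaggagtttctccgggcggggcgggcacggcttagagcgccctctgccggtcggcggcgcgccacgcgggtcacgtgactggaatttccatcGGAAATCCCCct
Sqstm1 (chr11:50210821-50210868, minus strand): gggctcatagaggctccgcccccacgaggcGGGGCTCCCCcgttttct
Tnip1 (chr11:54962957-54963028, minus strand): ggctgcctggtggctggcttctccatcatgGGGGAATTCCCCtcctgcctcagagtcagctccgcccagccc

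Sqstm1 (ENSMUSG00000015837, chromosome 11, 50199366 to 50210827, minus strand) encodes p62, an autophagy receptor and signalling scaffold. It was read at 1171 to 20820 CPM (median 8671) in the onset cells and 0 to 1076 CPM (median 188) in the activated cells, and no activated cell reached the lowest onset cell. The log2 ratio was 4.94 (4.85 to 5.02), with 4.40 and 5.22 within the dates. Of the 15 target and feedback genes, 6 were called in neither direction, Nfkbid among them, and the inhibitor genes that follow were among the 8 called at onset. Bcl3, an atypical IkB protein, was read in 8 onset cells and 3 activated cells, at up to 394 and 57.5 CPM, with a log2 ratio of 4.18 (3.70 to 4.71). Tnfaip3 encodes the deubiquitinase A20 that restrains NF-kB signalling, and it stood at 187 against 13.8 CPM, a ratio of 3.76 (3.32 to 4.24). Nfkbiz, which encodes IkB-zeta, ran from 352 to 1238 CPM at onset, with a median of 807, and from 0 to 405 CPM in activated cells, with a median of 12.2, and its ratio was 2.40 (2.26 to 2.55). Every onset cell held Nfkbiz, while 4 activated cells had no read of it. Bcl3 had a ratio of 4.93 without activated replicate 6, and Tnfaip3 4.95 without activated replicate 3.

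Rel encodes the subunit c-Rel and was read in all 11 onset cells, at 12.8 to 2684 CPM (median 848) in the onset cells and 0 to 1034 CPM (median 158) in the activated cells. The ranges overlapped, and the log2 ratio was 2.43 (2.30 to 2.56). Relb stood at 339 against 94.9 CPM, with a ratio of 1.84 (1.65 to 2.03). The other subunits Nfkb1, Nfkb2 and Rela had ratios of 0.82, 1.41 and 0.64 and were not called. Further called targets were Icam1, Nfkbia, Tnip1 and Bcl2l1, named after their values were seen, with ratios of 4.08, 1.26, 1.54 (2.90 without activated replicate 7) and 2.65 (4.03 without activated replicate 6). Nfkbia, the IkB-alpha gene, was at 1052 to 4521 CPM (median 3103) in the onset cells and 150.5 to 4656 CPM (median 733) in the activated cells, so its ranges overlapped although the ratio within the dates was 1.20 and 1.34. Bcl2a1d was the member higher in activated cells, at 111 against 6.72 CPM (-6.50 without onset replicate 10 in place of -4.04), and reads of this gene may be split with near-identical Bcl2a1 copies. Rel had a ratio of 3.04 without activated replicate 10, Relb 2.56 without activated replicate 5, and Icam1 5.07 without activated replicate 7. Bcl2a1d had a ratio of -3.33 without activated replicate 4.

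Immediate early genes are switched on within minutes of a signal and encode mostly transcription factors. Of 31 listed, 12 were considered, 7 were called higher at onset and 1 higher in activated cells, against 14.3% and 13.3% of all genes considered, with a median log2 ratio of 1.64. Their summed level was 4042 to 9611 CPM at onset (median 6897) and 400.5 to 4836 CPM in activated cells (median 1991), and 8 onset cells lay above every activated cell. Jund, an AP-1 subunit, was read in all onset cells at 47.1 to 359 CPM and in activated cells at 0 to 45.0 CPM, without overlap, a ratio of 3.70 (3.22 to 4.22). Junb had 655 against 137 CPM and a ratio of 2.25 (2.10 to 2.41). Batf, an AP-1 family member needed for type 2 cytokine programmes in lymphocytes, had 3203 against 983 CPM and a ratio of 1.70 (1.64 to 1.76). Klf6 had 171 against 17.5 CPM, with a ratio of 3.29 and 5.16 without activated replicate 2. Zfp36l1, Egr2 and Ier5 were called at 1.62 (3.28 without activated replicate 10), 1.56 (3.20 without activated replicate 10) and 1.93 (3.04 without activated replicate 4). Irf4, the exception, had 0 reads in 11 onset cells and 114 CPM in activated cells, at least 101-fold higher, from reads in 6 activated cells. Junb had a ratio of 2.93 without activated replicate 4.

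Bcl2 family genes divided by member. Bcl2l11 (ENSMUSG00000027381, chromosome 2, 128126038 to 128162547, plus strand), which encodes the pro-apoptotic protein Bim, led the genes named by size toward onset. It was read in 10 onset cells, at up to 1480.2 CPM (median 585), and in 0 of 11 activated cells. It was at least 569-fold higher at onset, from 1430 reads against 0. The anti-apoptotic genes Bcl2 and Bcl2l1 were called in the same direction, at 443 against 47.3 CPM and 135 against 21.6 CPM. In activated cells Fas, a death receptor gene, was the higher, at 82.0 against 23.2 CPM and a ratio of -1.82. In all, 3 of 8 considered members were called higher at onset and 2 higher in activated cells, against 14.3% and 13.3% of all genes considered. Bcl2 had a ratio of 2.45 without onset replicate 7 and 4.52 without activated replicate 5, and Fas -2.66 without onset replicate 9 and -1.22 without activated replicate 7.

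Genes that answer IL-2 through STAT5 were also higher at onset in part. Of 12 considered STAT5 target, STAT and SOCS genes, 4 were called higher at onset and 1 higher in activated cells, against 14.3% and 13.3% of all genes considered, with a median log2 ratio of 1.21. Cish encodes a feedback inhibitor of STAT5 signalling and ran from 396 to 1725 CPM at onset, with a median of 834, and from 0 to 852 CPM in activated cells, with a median of 277, a ratio of 1.61 (1.49 to 1.72). Pim1, a survival kinase gene, had 487 against 79.5 CPM and a ratio of 2.61 (2.42 to 2.81), and Bcl2 a ratio of 3.23. Socs2 had a ratio of 4.56, which rested on few cells (1.88 without onset replicate 9, 7.36 without activated replicate 7). Stat5a itself was the gene higher in activated cells, at 335 against 71.0 CPM and -2.24. Of stress genes, 1 of 9 considered was called in each direction (11.1%, against 14.3% and 13.3% of all genes considered). Rrad, a small GTPase gene, was higher at onset, at 2916 against 208 CPM (3.81, 8.81 without activated replicate 2). Gclm, for glutathione synthesis, was higher in activated cells, at 154 against 44.5 CPM. The summed stress list held 4695 to 13160.5 CPM at onset (median 7702) and 894 to 5961 CPM in activated cells (median 3115). On this sum 9 onset cells lay above every activated cell. Of 3 lipid mediator and amine enzyme genes considered, Tph1 (0.14), Hpgds (0.05) and Ptgs2 (-4.06), none was called. Ptpn22, a phosphatase gene of lymphocyte signalling, was at 170 against 6.58 CPM, a ratio of 4.69 (4.06 to 5.40), and was 1 of 2 signalling inhibitors considered. Pim1 had a ratio of 3.35 without activated replicate 6, Stat5a -3.17 without onset replicate 10 and -1.53 without activated replicate 9, and Ptpn22 6.12 without activated replicate 8.

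The study's text names 15 genes as transiently induced, a list chosen on these samples, so its direction is not independent evidence. Of 13 considered, 9 were called higher at onset and 0 higher in activated cells, against 14.3% and 13.3% of all genes considered, with a median log2 ratio of 2.43. Besides Rel, Relb, Nfkbiz, Bcl3, Tnfaip3 and Bcl2l1 these were Klrg1, Cd274 and Egr2. Klrg1 (ENSMUSG00000030114, chromosome 6, 122270596 to 122282882, minus strand), an inhibitory receptor gene of mature ILC2, was at 0 to 1445 CPM (median 669) in the onset cells and 0 to 180.4 CPM (median 0) in the activated cells. It was held by 10 onset cells and 3 activated cells, and the ratio was 4.00 (3.76 to 4.26). Cd274, which encodes the checkpoint ligand PD-L1, was read in 8 onset cells and 0 activated cells and was at least 175-fold higher. Egr2 had a ratio of 1.56 (1.34 to 1.79), or 3.20 without activated replicate 10. Klrg1 had a ratio of 4.60 without activated replicate 7. With the floor of 3 reads, Cd274 had a ratio of 6.73 without onset replicate 8 on the log2 scale.

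The others of the 15 did not pass in both dates or were too low. Mir155hg, the host transcript of miR-155, had a summed ratio of 1.94 but 2.70 and -1.90 within the dates, and onset replicate 5 held 64.5% of the onset reads, without which the ratio was 0.57. Nr4a1 had 0.65 and 3.16 within the dates (1.66 in all, 3.74 without activated replicate 4), and Il17rb, the IL-25 receptor subunit gene, had 321 reads in 4 onset cells and 0 in activated cells, with its reads on the second date. Il4 is given above. Zc3h12a, the Regnase-1 gene, lay under the mean of 50 CPM, at 67.2 against 11.0 CPM and a ratio of 2.62 (2.09 to 3.18). Lilrb4a matched no identifier, and ENSMUSG00000062593 (Gm49339 in the annotation), whose span includes that locus, is given below among the largest differences.

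Other checkpoint and costimulatory genes called were Pdcd1lg2, the PD-L2 gene, at 565 against 108 CPM and a ratio of 2.39 (2.22 to 2.56), and the activation marker Cd69 at 194 against 21.3 CPM. Tnfrsf9, which encodes the costimulatory receptor 4-1BB, was higher in activated cells, at 260.2 against 14.9 CPM and -4.12. Of 9 considered, 3 were higher at onset and 1 in activated cells (33.3% and 11.1%), against 14.3% and 13.3% of all genes considered. Among chromatin and RNA regulators, 3 of 8 were higher at onset (37.5%) and 0 in activated cells. Kdm2b, a histone demethylase gene, was read in all 11 onset cells at 125 to 2362 CPM and in 5 activated cells at up to 649 CPM, a ratio of 3.84 (3.65 to 4.03), or 5.82 without activated replicate 4. The nuclear non-coding RNAs Neat1 and Malat1 had ratios of 4.27 (8.65 without activated replicate 9) and 1.47. Cd69 had a ratio of 3.95 without activated replicate 1, and Tnfrsf9 -5.62 without onset replicate 5.

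Markers of ILC2 were present in both states. Of 24 lineage factors and receptors, 14 were considered, and their summed level was 6349 to 15968 CPM at onset (median 11129.5) and 2883 to 15503 CPM in activated cells (median 4714). Gata3, the lineage-defining transcription factor, was read in all 22 cells, at 174 to 3611 CPM (median 985) in the onset cells and 54.9 to 1399 CPM (median 274) in the activated cells, with a ratio of 1.82 (1.72 to 1.93). Kit, used for the sort, had 677 against 99.6 CPM and a ratio of 2.77 (2.59 to 2.94), while Ly6a, the Sca-1 gene, had a ratio of 0.84 and was not called. The IL-33 receptor gene Il1rl1 was read in all 22 cells and had a ratio of 0.55, and Il2ra had -0.28. In all, 5 of 14 were called higher at onset and 1 in activated cells, against 14.3% and 13.3% of all genes considered, the onset others being Klrg1, Id2 (1.31) and Maf (5.62, 2.79 without onset replicate 11), and Ets1 was higher in activated cells at 92.4 against 15.3 CPM (-2.59, -1.48 without activated replicate 10). Maf had a ratio of 7.36 without activated replicate 4, and Ets1 -3.86 without onset replicate 1.

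Actin cytoskeleton genes lay toward onset. Of 18 considered, 6 were called higher at onset and 0 higher in activated cells, against 14.3% and 13.3% of all genes considered, with a median log2 ratio of 1.07, and their summed level was 36058 to 125168 CPM at onset (median 68181) and 8833 to 56321 CPM in activated cells (median 25249.6). Actb ran from 5321 to 22178 CPM at onset, with a median of 12701, and from 179 to 6182 CPM in activated cells, with a median of 2161. The ranges overlapped through 1 onset cell, the other 10 lying above every activated cell, and the ratio was 2.33 (2.29 to 2.37). Actg1 had a ratio of 3.50 (3.43 to 3.57), and since it is similar in sequence to Actb the division of reads between the pair is uncertain. Msn, which links actin to the membrane, had 2.20, and Vim had 3.05 with 7.86 without activated replicate 11.

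By the rule of size in both dates, the 15 largest differences toward onset included genes of no list. After Bcl2l11 came Serpinb1a, a protease inhibitor gene (1197 reads against 0, at least 476-fold higher), Ctla2b (788 against 0, at least 313-fold, with reads that may be split with Ctla2a), Plin3, a lipid droplet protein gene (368 against 0, at least 146-fold), Neurl3 (448 against 0, at least 178-fold) and Baiap2 (1054 against 0, at least 419-fold). Gm49339 (ENSMUSG00000062593, chromosome 10, 51480612 to 51496613, plus strand) was read in all 11 onset cells at 929 to 4122 CPM and in 5 activated cells at up to 266 CPM, without overlap, a ratio of 5.28 (5.05 to 5.53). ENSMUSG00000089672, which has no name in the annotation, also did not overlap, at 1283 against 16.3 CPM. Gm49339 had a ratio of 5.91 without activated replicate 5. With the floor of 3 reads, Baiap2 had a ratio of 7.82 without onset replicate 10 on the log2 scale.

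Plgrkt (ENSMUSG00000016495, chromosome 19, 29348599 to 29367390, minus strand), a plasminogen receptor gene, starts next to Cd274 (start at 29367455, plus strand) on the opposite strand. It was read in every onset cell, at 171 to 689 CPM, and in 1 activated cell, at 82.4 CPM. The cells did not overlap, and the ratio was 5.49 (4.94 to 6.10), or 8.50 without activated replicate 8. The remaining genes of the 15 were Sqstm1, Ltb, Ldlrad4 at 475 against 4.38 CPM, Gnai2 at 185 against 5.95 CPM, the non-coding Gm43305 at 2537 against 86.7 CPM and the calcium pump gene Atp2b1 at 443 against 20.0 CPM (4.47, 8.01 without activated replicate 6). Ldlrad4 had a ratio of 6.15 without onset replicate 7 and 8.87 without activated replicate 1, and Gnai2 6.29 without activated replicate 5.

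Genes for the endoplasmic reticulum lay toward activated cells. Of 35 translocation, folding and unfolded protein response genes considered, 11 were called higher in activated cells (31.4%, against 13.3% of all genes considered) and 0 higher at onset, with a median log2 ratio of -1.18 (-1.09 and -1.29 within the dates). Their summed level was 6385 to 11021 CPM at onset (median 8705) and 11788 to 29988 CPM in activated cells (median 15490.4). No onset cell reached the lowest activated cell on this sum. Hsp90b1 (ENSMUSG00000020048, chromosome 10, 86690209 to 86705509, minus strand), which encodes the chaperone GRP94, was read in all 11 activated cells at 64.6 to 1994 CPM and in 2 onset cells at up to 196 CPM. Its ratio was -5.24 (-5.71 to -4.81), or -8.996 without onset replicate 5. Pdia6, a disulphide isomerase gene, stood at between 90.5 and 1780.5 CPM in the activated cells (median 393), against 0 to 208 CPM (median 0) at onset, a ratio of -4.29 (-4.67 to -3.93). Dnajb11 and Sdf2l1, which act with the chaperone BiP, had -4.48 (-7.77 without onset replicate 6) and -3.99 (-6.75 without onset replicate 3). Hspa5, the BiP gene, had -0.86 in all, and -0.06 and -1.63 within the dates, and was not called. Pdia6 had a ratio of -6.18 without onset replicate 10, and Sdf2l1 -3.13 without activated replicate 5.

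Several of these genes are known to carry the endoplasmic reticulum stress element, through which ATF6 and XBP1 act. Searched on both strands in the same RefSeq windows, with any 9 bases between CCAAT and CCACG, it was found in 5 of the 9 called genes that had a window (Calr, Canx, Creld2, Hsp90b1 and Pdia6) and in 0.137% of all 27025 genes. These 5 were the only genes called higher in activated cells that held it (1.72% of those with a window), against 0.395% of the genes considered and 0 of 276 called higher at onset. The uncalled list members Hspa5 and Dnajc3 held it too. The list was drawn up from genes of this response, so the share describes the list. The stretches around the matches follow in the same form, with the element in capitals on either strand.
Hsp90b1 (chr10:86705503-86705686, minus strand): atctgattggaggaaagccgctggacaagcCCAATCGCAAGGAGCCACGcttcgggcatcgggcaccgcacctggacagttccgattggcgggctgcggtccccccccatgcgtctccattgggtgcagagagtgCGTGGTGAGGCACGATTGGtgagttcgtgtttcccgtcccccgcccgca
Pdia6 (chr12:17266461-17266539, plus strand): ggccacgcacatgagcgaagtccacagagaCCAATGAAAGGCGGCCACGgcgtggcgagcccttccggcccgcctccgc
Creld2 (chr15:88819490-88819568, plus strand): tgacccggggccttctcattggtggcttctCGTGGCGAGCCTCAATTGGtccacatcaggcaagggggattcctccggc
Calr (chr8:84847045-84847123, minus strand): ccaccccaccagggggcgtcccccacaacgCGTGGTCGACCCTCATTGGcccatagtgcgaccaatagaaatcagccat
Canx (chr11:50325770-50325848, minus strand): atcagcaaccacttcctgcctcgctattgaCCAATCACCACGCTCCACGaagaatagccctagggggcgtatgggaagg

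Cytosolic and mitochondrial chaperone genes went the same way, with 6 of 21 called higher in activated cells and 0 at onset (median log2 ratio -1.19). Hspe1 and Hspd1 encode the mitochondrial chaperonin pair HSP10 and HSP60. Hspe1 was at between 968 and 3881 CPM in the activated cells (median 1664), against 0 to 613 CPM (median 229.7) at onset, and the cells did not overlap. Its ratio was -3.54 (-3.68 to -3.41), and that of Hspd1 -3.52 (-3.81 to -3.25). Tcp1 and Stip1 had -1.80 and -1.31. Proteasome subunit genes gave 7 of 41 higher in activated cells and 1 at onset, led by Psmd7 at -3.06, and the exception was the immunoproteasome subunit Psmb9, at 197 against 34.4 CPM and 2.52 (2.22 to 2.83). These shares, 28.6% and 17.1%, stand against 13.3% of all genes considered. Psmd7 had a ratio of -4.33 without onset replicate 7, and Psmb9 1.69 without onset replicate 7 and 3.28 without activated replicate 5.

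Of 77 nuclear-encoded oxidative phosphorylation genes, 14 were called higher in activated cells (18.2%) and 1, Cox7a2l at 1.70, higher at onset. The former share is near the 13.3% of all genes considered. The median was -0.69, and the summed level was 28352 to 45106 CPM at onset (median 36735) and 36610.4 to 72626 CPM in activated cells (median 54762), with 9 activated cells above every onset cell. Uqcrc2 and Ndufs6, subunits of complexes III and I, had -3.72 (-4.14 to -3.33) and -2.52 (-2.71 to -2.35). Atp5s was called at -1.70, from reads in 1 onset cell and 3 activated cells, and was -6.71 without onset replicate 6 and 2.70 without activated replicate 9. Of 6 mitochondrially encoded messenger RNAs considered, mt-Co1 was higher at onset (1.51) and 0 were higher in activated cells, a share near the 14.3% of all genes, and the list median was -0.07 (0.46 and -0.42 within the dates). Uqcrc2 had a ratio of -4.74 without onset replicate 5.

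Amino acid and one-carbon genes had the lowest median among lists with at least 5 genes considered, -2.20 over 14 genes in the summed CPM, although within each date the 5 cell cycle genes considered, 2 above 0 and 3 below in the summed CPM, had a lower median (-1.74 and -1.95 against -1.40 and -1.68). The cytokine list, with 9 genes considered, was lower still on the second date (-2.03). Of the 14 genes, 5 were called higher in activated cells and 0 at onset, against 13.3% and 14.3% of all genes considered. Shmt2, the mitochondrial serine hydroxymethyltransferase gene, had 0 reads in 11 onset cells and was read in 10 activated cells, and was at least 149-fold higher there. Psph and Mthfd2 had -3.49 and -2.47, and Shmt1 had -2.54 (-6.47 without onset replicate 11, -1.31 without activated replicate 10). Glycolysis genes gave 4 of 10 (40%) higher in activated cells (Pgam1, Hk2, Gapdh and Ldha, at -2.55, -2.22, -1.46 and -1.25) and 1 of 10, below the 14.3% of all genes, at onset (Pfkp 2.95, 4.56 without activated replicate 11). Cholesterol and fatty acid synthesis gave 2 of 8 (25%) higher in activated cells, Idi1 at -3.55 and Mvd at -1.90 (-6.24 without onset replicate 6), although its median was 0.25, with 5 ratios above 0 and 3 below, and changed sign between the dates. Psph had a ratio of -4.86 without onset replicate 3, Mthfd2 -3.63 without onset replicate 8, and Idi1 -4.87 without onset replicate 5.

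Ribosome biogenesis genes gave 7 of 28 higher in activated cells (25%, against 13.3% of all genes) and 1 at onset, with a median of -0.79. Nhp2, a core protein of box H/ACA particles, had 1539.8 against 282 CPM and a ratio of -2.45 (-2.56 to -2.34), and Noc4l had -4.72. Nop14 was the gene higher at onset (2.17, 1.40 without onset replicate 9, 3.70 without activated replicate 10). Cytosolic ribosomal protein genes gave 7 of 81 (8.64%), below the 13.3% of all genes, with Rpl7a at -2.05, and many of them have near-identical copies that can divide reads. Of 29 translation factor genes, Eif4ebp1 and Eif5a were called higher in activated cells (6.90%, below the 13.3% of all genes) and 0 at onset. Eif4ebp1 encodes the translation repressor 4E-BP1 and was read in 10 activated cells (median 781 CPM) and 2 onset cells, with a ratio of -4.23, or -9.77 without onset replicate 3. Eif5a was read in all 22 cells, at 478 CPM at onset and 1106 CPM in activated cells. Of 5 cell cycle genes considered, Cdk4 (-1.86) and Tyms (-2.93, -7.05 without onset replicate 10) were higher in activated cells (40%, against 13.3%). Summed over the whole cell cycle list, the level was 277 to 5342 CPM at onset (median 1623) and 731 to 2567 CPM in activated cells (median 1401), the opposite direction to the median of the 5, and 3 onset cells lay above every activated cell. Noc4l had a ratio of -6.61 without onset replicate 2, and Tyms -2.30 without activated replicate 6.

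The 15 largest differences toward activated cells were led by Il9 and Pdzk1ip1, a small membrane protein gene (2000 reads against 0, at least 559-fold higher). They also held the nucleosome-binding protein gene Hmgn1, with 2 onset reads (unfloored log2 ratio -8.16, -11.21 to -6.30), and Tmco1, with 1 onset read (-8.49, -13.80 to -6.01). Mad2l2, Surf2, Got1 and Umps had 0 onset reads and were at least 116-fold, at least 109.8-fold, at least 95.0-fold and at least 93.3-fold higher. Got1 encodes cytosolic aspartate aminotransferase and Umps the last enzyme of uridine monophosphate synthesis. Cnih4 had -5.40, Itpa -4.11 (-7.06 without onset replicate 7) and Pycrl -4.21 (-6.40 without onset replicate 10), and Shmt2, Hsp90b1, Pdia6 and Dnajb11 completed the set. In each of these 15 except Il9 the cells of the states overlapped. Cnih4 had a ratio of -7.17 without onset replicate 2. With the floor of 3 reads, Pdzk1ip1 had a ratio of -7.88 without activated replicate 6, and Got1 -5.98 without activated replicate 4 on the log2 scale.

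**Figure D3:**
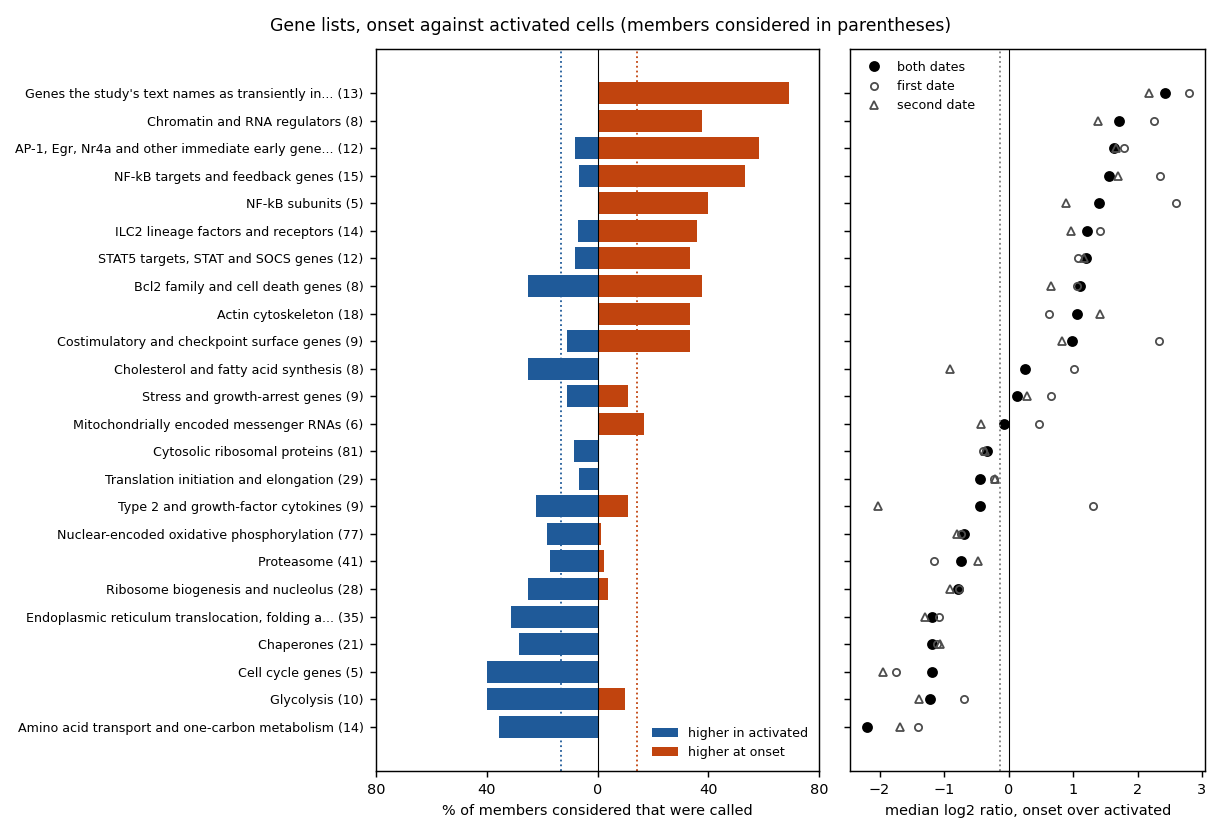
For each list with at least 5 genes considered (number in parentheses), bars on the left give the percentage of members called in each direction, with dotted lines at the 14.3% and 13.3% of all genes, and points on the right give the median log2 ratio in all cells and within each date. Lists of signalling genes lie at positive medians and lists of folding, oxidative phosphorylation, glycolysis and translation genes at negative medians, and the cytokine, cholesterol and mitochondrially encoded lists change sign between the dates.

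The other states of the IL-13 index are given side by side. Cells before stimulation were 5 cells of the first title date only, while the other states hold 11 cells over both dates. Sqstm1 stood at 209 CPM before stimulation, 10922 at 30 min, 10169 at 60 min, 4872 at 90 min, 357 in activated cells and 764 in silent cells, in which no secretion had been detected. Bcl3 had 0, 211, 128, 124, 11.6 and 4.53 CPM in the same order, and Kdm2b 53.9, 1088, 805, 238, 76.1 and 79.3 CPM. All 3 genes were at their highest at 30 min. Klrg1 was highest at 60 min, with 807 CPM before stimulation, 699, 922 and 656 CPM at the transition times, 43.5 in activated and 171 in silent cells. Actb was again highest at 30 min, with 4024, 11748, 9243, 7268, 2339 and 2924 CPM. The actin list had median summed levels of 55307, 68181, 73355, 53906, 25249.6 and 41227 CPM per cell in the same order. The list of ILC2 lineage factors and receptors had 12280, 11129.5, 10971, 10566, 4714 and 7378 CPM. Both lists were at their lowest in activated cells.

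Genes higher in activated cells also differed in the states before. Csf2 had 1.04 CPM before stimulation, 2051, 3244 and 2292 CPM at 30, 60 and 90 min, 13159 in activated and 873 in silent cells, and Il9 0, 0.374, 236, 43.8, 44252 and 0.378 CPM. Hspe1 stood at 163, 183, 492, 618, 2129 and 706 CPM in the same order. Pdia6 had its lowest level at 30 min, with 189.8, 24.3, 122, 237, 476 and 277 CPM. The nuclear-encoded oxidative phosphorylation list had median summed levels of 55615, 36735, 37604, 39501, 54762 and 48883 CPM per cell. Its level in activated cells was thus near that before stimulation, and 30 min was the lowest. No test was made between states, which are 1 sample each.

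**Figure D4:**
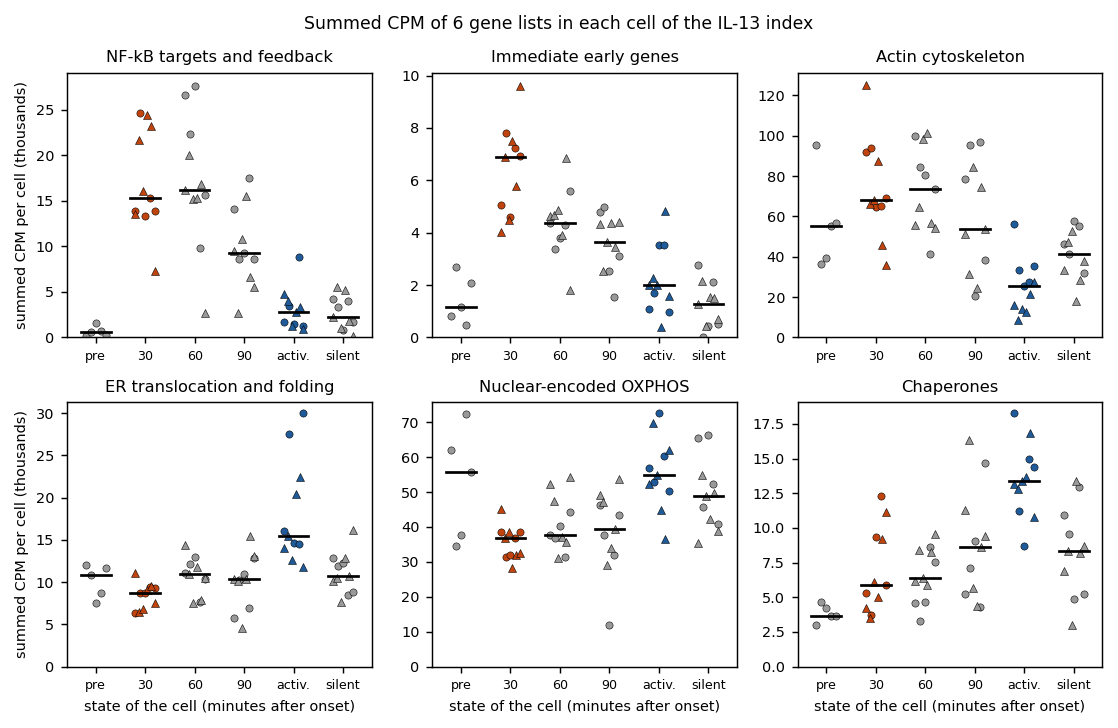
Summed CPM of 6 gene lists (in units of 1000 CPM, y axis) in each cell of the IL-13 index by state (x axis, transition cells by minutes after onset), with circles for the first title date, triangles for the second and bars at the median. The endoplasmic reticulum list has a median of 10843 CPM before stimulation, 8705 at 30 min and 15490.4 in activated cells, and the NF-kB list 598, 15280 and 2779.

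Cells indexed by IL-5 secretion, which share no cell with those above, were compared in the same way, with 10 onset cells (1 cell of 73 gene reads was dropped) and 11 activated cells. Of the 363 genes called higher at onset, 230 were considered in both indexes and 92 were called higher at onset in the IL-5 index too. This is 40% of those 230 genes, against 9.53% of the 2057 genes considered in both, and 46.9% of the 196 IL-5 calls, against 11.2% of the 2057 called in the IL-13 index. Of the 338 genes higher in activated cells, 295 were considered in both and 59 were called the same way, 20% of these 295 genes against 7.15%, and 40.1% of the 147 IL-5 calls against 14.3%. Sqstm1 was at 4432 against 245 CPM (onset against activated) in the IL-5 index, Bcl2l11 at 238 against 5.89 CPM, Ctla2b at 349 against 0 CPM and Kdm2b at 581 against 1.61 CPM. Il9, which had 1 read at onset in the IL-13 index, was at 5412 against 60451 CPM, and Pdia6 was at 171 against 649 CPM. Ccl1 was at 2317 against 2201 CPM. The lists are given for the IL-5 index as values, and no difference between the indexes was tested. Of 77 oxidative phosphorylation genes considered in the IL-5 index 1 was called higher in activated cells, with a median log2 ratio of -0.20, and amino acid and one-carbon genes had a median of -0.62. The endoplasmic reticulum list had 9 of 36 called higher in activated cells (median -0.81). The NF-kB target list had 9 of 19 called higher at onset (median 1.36). Beside these counts stand the IL-5 shares of 7.15% in activated cells and 9.53% at onset. Those shares are over the 2057 genes considered in both indexes, whereas list members were counted among all genes considered in the IL-5 index.

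Defining markers of other cell types were mostly at 0. All 6 B cell and 8 myeloid markers had 0 reads in both states, and of 10 mast cell and basophil markers 9 had 0 reads, with Fcer1a read in 1 activated cell. Of 9 markers of other innate lymphocytes, Il22 alone had reads, in 3 activated cells of the second date (344 CPM in all, 0 at onset), and 1 of these held 99.7% of them. Of 10 stromal, fat and epithelial markers, Pecam1 and Epcam had reads, with a summed list level of 0 to 444 CPM at onset and 0 to 45.8 CPM in activated cells. Among 11 T cell markers, Cd3e, Cd247, Cd4, Cd8a, Cd8b1 and Cd5 had 0 reads. Cd3g was called, with 481 reads in 2 onset cells and 0 in activated cells, Cd3d was read in 3 onset cells, Trac in 2 onset cells and Trbc1 in 3 activated cells, while Trbc2 was read in 10 onset cells and 7 activated cells at 435 against 443 CPM. The summed T cell list ran over 0 to 1517 CPM at onset and 0 to 3561 CPM in activated cells, and its part in the results was not tested. With the floor of 3 reads, Cd3g had a ratio of 6.07 without onset replicate 9 on the log2 scale.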

How the data were processed

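3' single-cell RNA libraries (SMART-Seq v4 3' DE) of ILC2 were compared, 11 at IL-13 onset and 11 activated. The authors deposited raw counts of reads by gene for each cell. Per the study's methods and the submitters' processing notes, the authors aligned read 1 with TopHat2 to mm10 (GRCm38) and counted with HTSeq. The annotation release and strand setting are not given in the sources used here, so overlapping antisense genes cannot be told apart. Of 46078 identifiers, 45143 were named, and 0.0886% of gene reads had no name. Depth was 166650 to 464285 gene reads per cell. Spike-ins were not used here.

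Reads of a state's cells were added up and scaled to CPM with pandas 2.3.3. States under 3 reads were set at 3 for ratios. Intervals are exact binomial at 95% (scipy 1.17.1). Genes considered had a mean of at least 50 CPM. Scripts were tested on simulated data. Each group is 1 sample, so no test was run. Alternatives were cell means, edgeR 4.0.16 TMM factors, DESeq2 1.42.0 size factors, totals without Il9, other minima, folds and a 10 CPM offset, each date, and leaving out each cell. Replicate numbers follow accession order and only name cells.

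The members and lists were chosen with earlier results of these data known. Named genes were the 15 largest called differences in each direction by the smaller within-date ratio, with at least 50 CPM in the higher state, a read in 70% of its cells, and 2-fold by cell means and on leaving out any cell. To these came up to 4 called members per list and direction, and the cytokine and transiently induced lists whole. Other genes, among them Icam1, Nfkbia, Tnip1, Nfkb1, Nfkb2, Rela, Nfkbid, Zfp36l1, Ier5, Id2, Hspa5, Dnajc3, Ly6a, Il1rl1, Il2ra, Tph1, Hpgds, Ptgs2, Cxcl1 and Cxcl2, were chosen after their values were seen. The values of 1 other gene are not reported here.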

Additional observations from a re-analysis of the deposited data

Results flagged for a closer look

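By the same 2-fold rule, met within both title dates, 4 genes called higher at onset and 2 called higher in activated cells by the IL-13 index were called the opposite way by IL-5, and 5 of these are reported here. Neither state has more than 1 sample in an index, and the difference between the indexes was not tested. Gde1 had a log2 ratio (onset over activated) of 1.35 by the IL-13 index but -7.08 by IL-5, and Nop14, a ribosome biogenesis gene, 2.17 and -4.01. Tmem30a, a flippase subunit gene, had 2.03 and -1.09, and Zfand6 1.54 and -1.01. In the other direction, Mien1 had -1.23 by IL-13 and 1.55 by IL-5.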

How the results depend on the processing

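The counts of genes called, 363 at onset and 338 in activated cells, moved with the minimum level: 742 and 872 at a mean of at least 10 CPM, 97 and 109 at 200 CPM, and 794 and 1042 with no minimum. At 4-fold in both dates they were 173 and 120. They stayed within 1.5 times under cell means, TMM and DESeq2 factors, totals without Il9, the 10 CPM offset and 4-fold in the summed CPM, and ranged over 342 to 379 and 323 to 363 on leaving out each cell. Of the 363 and 338 called genes, cell means kept 329 and 288, TMM factors 349 and 338, DESeq2 factors 363 and 314, and totals without Il9 348 and 338. The Il13 log2 ratio of 0.80 was 0.72 with cell means, 0.73 without Il9 reads, 1.80 on the first date alone and 0.27 on the second, and 0.57 to 1.19 on leaving out each cell. The difference in Il13 SD, 0.66, ranged over 0.21 to 1.04 on leaving out each cell. The difference in median genes detected per cell, 694, was 785 without thinning, 383 at a minimum of 5 reads and 652 to 757 on leaving out each cell.

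The median log2 ratio of the cytokine genes changed sign from -0.45 to 0.0075 with cell means, 1.30 on the first date alone, 0.65 without activated replicate 6 and 0.43 without activated replicate 7, and was -0.68 at lowest, without activated replicate 11. That of cholesterol genes changed from 0.25 to -0.90 on the second date alone and -0.13 without onset replicate 3, and was 0.52 at highest, without activated replicate 7. Atp5s changed from -1.70 to 2.70 without activated replicate 9, and was -6.71 without onset replicate 6. The cause of these changes was not tested. Under TMM and DESeq2 factors, all 24 list medians kept their direction. No paired analysis was possible because the replicate numbers follow accession order and the results come from no test. Depth limits genes at 0 in a state: 3 reads are 1.12 CPM at onset and 0.939 CPM in activated cells. Intervals cover the counting error of reads only, and 1 sample a state leaves variation between cultures unmeasured.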
